A study of Mus musculus with 2 samples.

Results

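The basal layer keratins examined here were Krt5, Krt14 and Krt15, taken as every non-control probe of the arrays that carries one of these gene names. Each gene had 1 probe and 1 spot per array, which gave 3 of 41174 probes and 3 of the 27729 genes or unnamed transcripts on the array. All 3 were bright enough to be compared, among 6208 compared genes. The study set RNA of Lgr6-high cells against RNA of Lgr5-high cells on 2 Agilent arrays, each hybridised with both RNAs in different dyes. The Lgr6-high cells were the GFP-high fraction sorted from dorsal skin from Lgr6-EGFP-ires-CreERT2 knock-in mice, in which the Lgr6 promoter drives the reporter. The Lgr5-high cells were the corresponding fraction from Lgr5-EGFP-ires-CreERT2 knock-in mice, in which the Lgr5 promoter drives it. Both groups thus carried EGFP and CreERT2 in a stem cell receptor locus, each sort pooled 3 mice, and age and sex were not given in the labels. On array 1 the Lgr6-high RNA carried Cy5 and the Lgr5-high RNA Cy3, and on array 2 the Lgr6-high RNA carried Cy3 and the Lgr5-high RNA Cy5.

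Keratins are the intermediate filament proteins of epithelial cells and assemble as pairs of a type I and a type II chain. In mouse skin Krt5 (type II) and Krt14 (type I) form the filaments of the basal layer of the epidermis and of the outer root sheath of the hair follicle, and cells that leave the basal layer switch to Krt1 and Krt10. Krt15 is a further type I keratin of basal cells, known in the follicle as a marker of the bulge, where quiescent stem cells reside. The filaments are tied to the basement membrane by hemidesmosomes and to neighbouring cells by desmosomes.

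The probe sequences are shown because each member rests on a single spot and keratin genes resemble one another. All 3 probes had 60 bases and matched the minus strand on mouse build mm9, Krt5 at chr15:101537514-101537573, Krt14 at chr11:100064683-100065288 and Krt15 at chr11:99993340-99993399. The Krt14 interval spans 606 bases of genome for a probe of 60 bases, so that its match is split. For Krt5 the last 30 bases are given, with the letters of a polyadenylation signal in capitals. For Krt14 and Krt15 the whole probe is given, with the longest run shared with any probe of another keratin in capitals.
Krt5: tgacttcctccagagtctgtccAATAAAat
Krt14: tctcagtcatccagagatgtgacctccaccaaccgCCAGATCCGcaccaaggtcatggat
Krt15: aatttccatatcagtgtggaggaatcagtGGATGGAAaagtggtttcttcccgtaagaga
The longest run shared with another keratin's probe was 9 bases for Krt5 (with Krt1), 9 bases for Krt14 (with Krt36) and 8 bases for Krt15 (with Krt36). The transcripts of other keratins outside their probes were not searched, so whether a probe also binds them was not tested. The GC content was 45% for the Krt5 probe, 55% for the Krt14 probe and 41.7% for the Krt15 probe.

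Krt5, Krt14 and Krt15 gave some of the brightest spots on the arrays, in both cell populations. Signals are the scanner's mean pixel intensity of a spot, on a linear scale with no background subtracted. The Krt5 signal was 30350 (Cy5, array 1) and 192516 (Cy3, array 2) in Lgr6-high cells, against 87256 (Cy3, array 1) and 18459 (Cy5, array 2) in Lgr5-high cells. The Krt14 signal was 18432 (Cy5) and 115675 (Cy3) in Lgr6-high cells, against 35644 (Cy3) and 11696 (Cy5) in Lgr5-high cells. The Krt15 signal was 12814 (Cy5) and 109375 (Cy3) in Lgr6-high cells, against 28878 (Cy3) and 11280 (Cy5) in Lgr5-high cells. For each keratin the highest of the 4 signals was Lgr6-high RNA in Cy3 and the lowest Lgr5-high RNA in Cy5. Within each array, however, the Cy3 spot was brighter than the Cy5 spot whichever cells it carried, so that the ranges of the populations overlapped. Of 43379 probe spots, only 6 on array 1 and 10 on array 2 were brighter than that of Krt5. The signals stood 85.4 to 3377 times above the local background, and no probe spot was saturated.

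**Figure D1:**
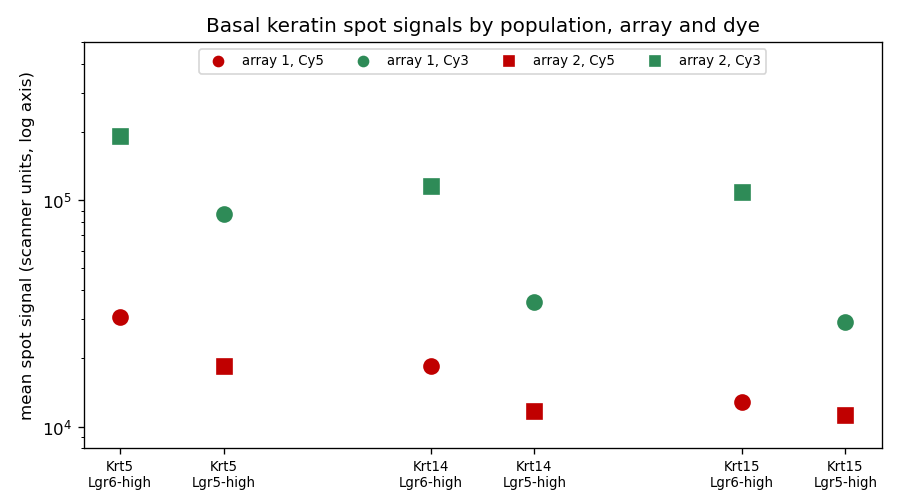
Mean spot signal (scanner units, log axis) of Krt5, Krt14 and Krt15 in Lgr6-high and Lgr5-high cells, 1 point per array and dye. Green Cy3 points lie above red Cy5 points within every gene, and within each dye the Lgr6-high point lies above the Lgr5-high point.

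Compared within 1 dye, and so between arrays, all 3 keratins were higher in Lgr6-high cells in both dyes. In Cy3 the Lgr6-high signal was 2.21-fold that of the Lgr5-high cells for Krt5, 3.25-fold for Krt14 and 3.79-fold for Krt15, while the median over all compared genes was 1.36-fold. In Cy5 it was 1.64-fold for Krt5, 1.58-fold for Krt14 and 1.14-fold for Krt15, against a median of 0.913-fold. The order of the 3 keratins was thus opposite in the 2 dyes. In Cy3, 20.2% of genes had a higher fold than Krt5, 9.70% than Krt14 and 7.01% than Krt15, and in Cy5 the shares were 2.82%, 3.32% and 13.3%. Such values carry any difference between the arrays in labelling, hybridisation and scanning.

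Within an array, the ratio of mean signals changed sign with the dye. All ratios that follow are log2 of Lgr6-high over Lgr5-high, so that positive values mean more signal in Lgr6-high cells. Before any centring the Krt5 ratio was -1.52 on array 1 and 3.38 on array 2, the Krt14 ratio -0.95 and 3.31, and the Krt15 ratio -1.17 and 3.28. After centring on the median of each array's probe spots, the mean-signal ratios were -2.17 and 4.0 for Krt5, -1.60 and 3.92 for Krt14, and -1.82 and 3.89 for Krt15. Their means over the arrays were 0.91 ± 4.36 for Krt5, 1.16 ± 3.90 for Krt14 and 1.04 ± 4.04 for Krt15 (SD, n = 2 arrays). The 3 keratins lay close together on each array, and the arrays were far apart. The 60 other genes among the brightest 1% moved the same way, with median mean-signal ratios of -3.11 on array 1 and 2.66 on array 2.

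A gene was called where its mean ratio reached 1 (a 2-fold difference) and both arrays gave at least 0.5 with the same sign. Whether the arrays held different RNA pools is not stated in the labels, so the pair counted as 1 replicate in both dye orientations, and no test between the populations was possible. With the mean-signal ratio 0 of 3 basal keratins were called, where 0.58% of all genes were called higher in Lgr6-high cells and 0.242% in Lgr5-high cells. Among the 60 other genes of the brightest 1%, 0 were called in either direction, so this does not set the keratins apart. SDs describe the spread between the hybridisations and, with the pools unknown, cannot be read as a spread between animals.

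Loess, which subtracts a trend of the ratio with spot brightness on each array, turned the sign of the keratins' ratios on both arrays and narrowed the gap between them. The loess trend at the Krt5 spot was -3.35 on array 1 and 3.54 on array 2. The resulting Krt5 ratio was 1.82 on array 1 and -0.15 on array 2 (mean 0.83 ± 1.39, SD, n = 2 arrays). The Krt14 ratio was 2.24 and -0.10 (mean 1.07 ± 1.65), and the Krt15 ratio 1.95 and -0.12 (mean 0.91 ± 1.46). Each keratin was high toward Lgr6-high cells on array 1 and near 0 on array 2, so that the SD exceeded the mean for all 3. None of the 3 was called, against 7.26% of all genes called higher in Lgr6-high cells and 4.75% in Lgr5-high cells. Only 2.22% of genes had a higher loess ratio than Krt5 on array 1, but 57.8% did on array 2. For Krt14 the shares were 1.40% and 54.8%, and for Krt15 1.92% and 56.0%. Over all genes the median gap between the arrays was 0.32 and the median SD 0.23. When the outlier spots were kept in the background fit, the means turned to -0.90 for Krt5, -0.49 for Krt14 and -0.62 for Krt15.

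The gap between the arrays was shared by other very bright spots. After loess, the 60 other genes of the brightest 1% had a median ratio of 0.62 on array 1 and -1.41 on array 2, where the median of all genes was -0.04 and -0.02. The keratins lay above these medians on both arrays, as the plot of ratio against brightness shows. Of the other bright genes, Ptprz1 and Apoe also lay above Krt5 on both arrays. Mt2, also of the brightest 1%, lay above all 3 keratins on both, at 2.28 on array 1 and 0.55 on array 2. Among those 60 genes, 1 was called higher in Lgr6-high cells and 4 in Lgr5-high cells, against 7.26% and 4.75% of all genes.

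**Figure D2:**
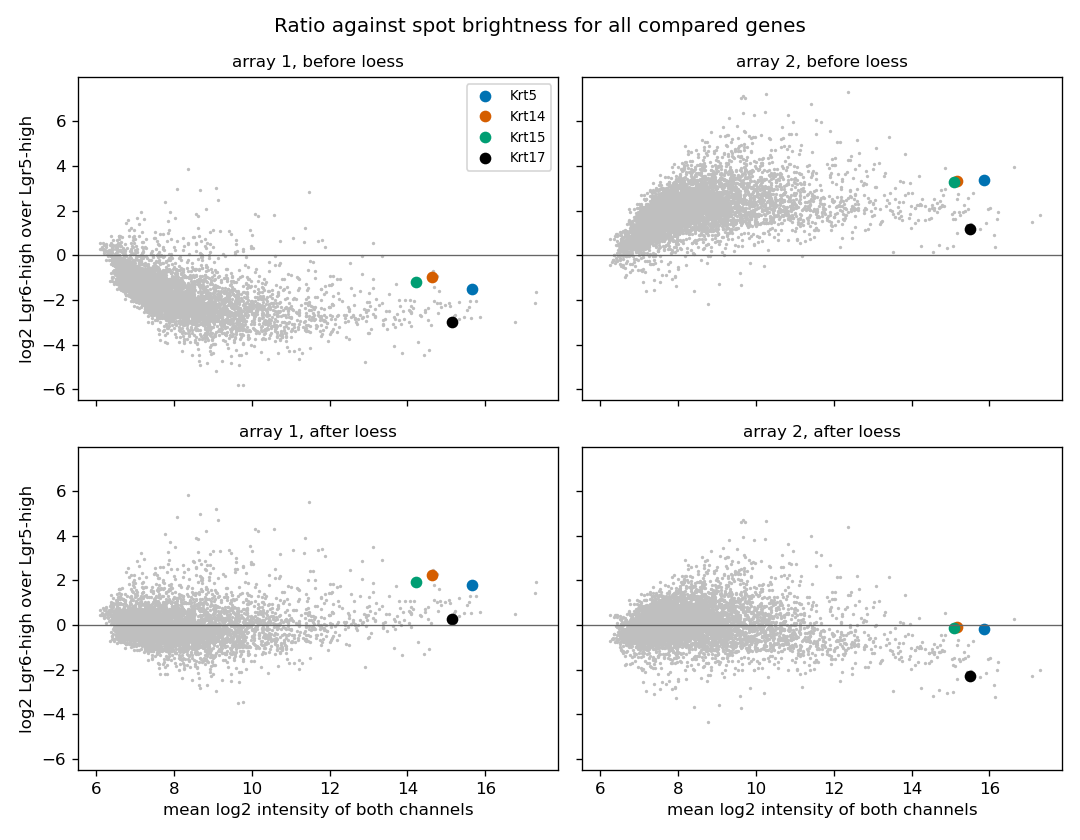
Log2 ratio of Lgr6-high over Lgr5-high against the mean log2 intensity of both channels for all 6208 compared genes (grey), before and after loess, with array 1 on the left and array 2 on the right. Krt5, Krt14 and Krt15 lie at the bright end, above most grey points of like brightness on both arrays, and Krt17 (black) lies below them.

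The scanner software's own dye-normalised signals gave less spread between the arrays for these genes than the mean-signal or loess ratios. The processed Krt5 signal was 701411 on array 1 and 599054 on array 2 in Lgr6-high cells, against 334031 and 265326 in Lgr5-high cells. The processed Krt14 signal was 422513 and 337653 in Lgr6-high cells, against 134840 and 161998 in Lgr5-high cells. For Krt15 it was 281655 and 317901 in Lgr6-high cells, against 104677 and 146829 in Lgr5-high cells. In this unit every Lgr6-high value lay above every Lgr5-high value of the same gene. The share of all genes that separate in this way was not counted, so this does not set the keratins apart. The within-array folds were 2.10 and 2.26 for Krt5, 3.13 and 2.08 for Krt14, and 2.69 and 2.17 for Krt15. As log2 ratios they averaged 1.12 ± 0.07 for Krt5, 1.35 ± 0.42 for Krt14 and 1.27 ± 0.22 for Krt15 (SD, n = 2 arrays).

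All 3 keratins were called higher in Lgr6-high cells from the scanner's ratios, where 15.4% of all genes were called in that direction and 15.5% in the other. A higher mean ratio was found for 14.4% of genes in the case of Krt5, 11.2% for Krt14 and 12.2% for Krt15. By this measure the brightest 1% without the members had a median of -0.01 on the first array and -0.13 on the second. A limma fit of the loess ratios across all genes takes the 2 hybridisations as replicates, so its p-values rest on their spread and are no test of the populations. Its adjusted p was 0.110 for Krt5, 0.0683 for Krt14 and 0.0892 for Krt15, and 0 of 3 were under 0.05, against 7.38% of all genes called higher in Lgr6-high cells and 4.86% in Lgr5-high cells with a 2-fold minimum.

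**Figure D3:**
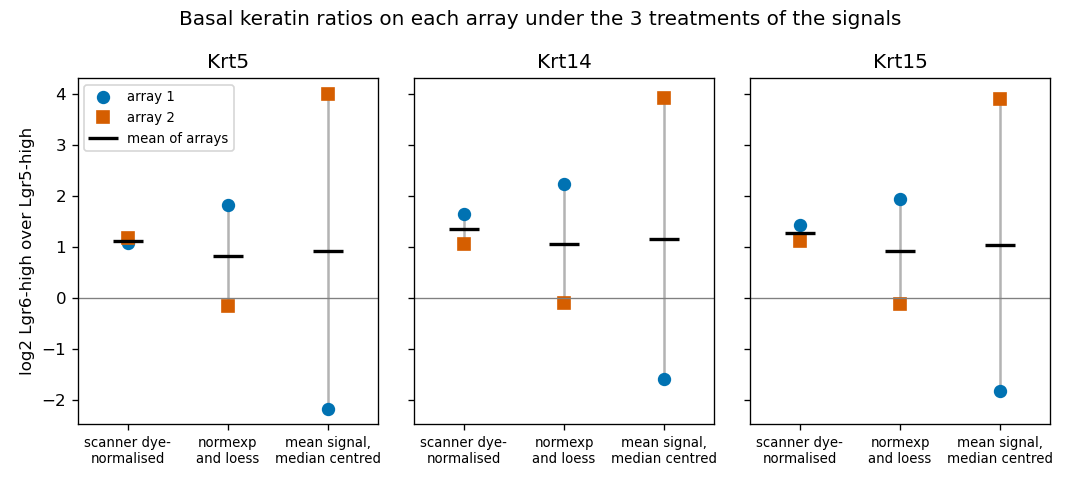
Log2 ratio of Lgr6-high over Lgr5-high for each keratin on array 1 (circles) and array 2 (squares), with the mean of both arrays as a bar, from the scanner's dye-normalised signals, from normexp with loess, and from median-centred mean signals. The means lie between 0.83 and 1.35 in all cases, while the distance between the arrays is smallest for the scanner's signals and largest for the mean signals.

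The dye treatment moves all bright spots of an array together, so the keratins were also set against a keratin of like brightness. Krt17, a type I keratin of the follicle's epithelium that is induced in injured epidermis, ranked 16th in brightness among the 6208 genes, against ranks 10 for Krt5, 28 for Krt14 and 38 for Krt15. The Krt17 signal was 12920 (Cy5, array 1) and 69339 (Cy3, array 2) in Lgr6-high cells, against 101424 (Cy3, array 1) and 30633 (Cy5, array 2) in Lgr5-high cells. Within each dye Krt17 was lower in Lgr6-high cells, at 0.422-fold in Cy5 and 0.684-fold in Cy3. Its loess ratio was 0.29 on array 1 and -2.30 on array 2, and its scanner ratio -0.62 and -0.93, and it was called by neither.

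On each array the ratio of every basal keratin exceeded that of Krt17 by more than 1, whatever the treatment. Over 8 treatments of the same scans, the difference from Krt17 ranged between 1.45 and 1.69 on array 1 and between 1.98 and 2.21 on array 2 for Krt5. For Krt14 it ranged between 1.82 and 2.27 on array 1 and between 1.99 and 2.38 on array 2. For Krt15 it ranged between 1.44 and 2.05 on array 1 and between 2.04 and 2.40 on array 2. Averaged over the arrays, the differences were 1.76 to 1.90 for Krt5, 2.05 to 2.17 for Krt14 and 1.87 to 2.05 for Krt15. A treatment moves bright spots of an array together, so the agreement over the 8 treatments was largely fixed beforehand and is no check on the difference. Krt17 was picked for this after its values were seen, and the result says how the keratins differ from Krt17 rather than whether either changed.

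**Figure D4:**
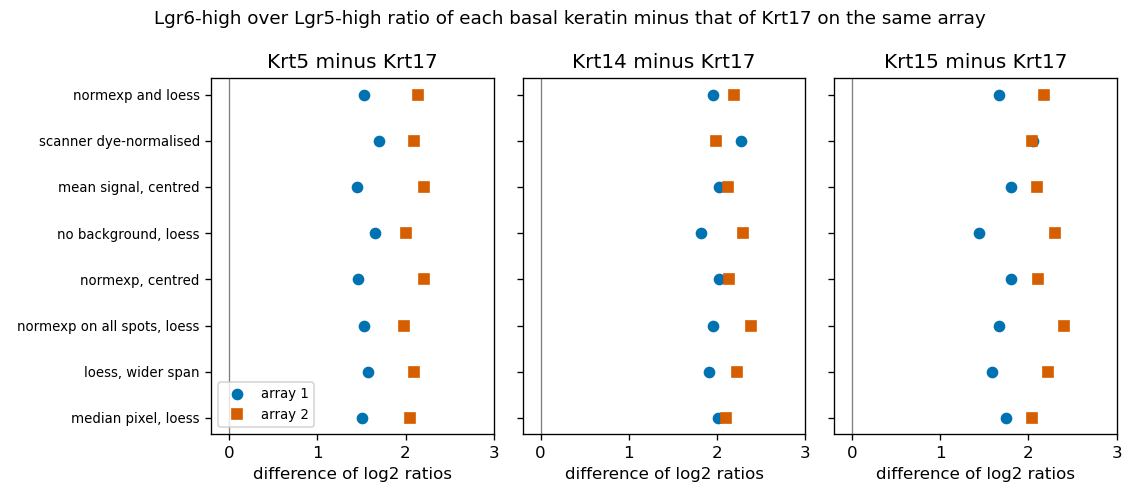
Difference between the log2 Lgr6-high over Lgr5-high ratio of Krt5, Krt14 or Krt15 and that of Krt17 on the same array, for 8 treatments of the scanned signals (rows), with array 1 as circles and array 2 as squares. Every point lies between 1.44 and 2.40.

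Set against the median of the brightest 1% on the same array, the members' ratios were 0.95 to 1.66 higher on array 1 and 0.79 to 1.34 higher on array 2 over the same treatments. The 10 brightest genes other than the members were Lars2, Ptprz1, Rn18s, Rpl37a, Rps20, Rps2, Rpl41, Rps18, Rplp1 and Rps16, mostly genes of the ribosome. Of these 10, 9 had a mean ratio below all 3 keratins under each treatment. The exception was Ptprz1, a receptor phosphatase gene, with a mean loess ratio of 1.11 and scanner ratios of 0.65 and 2.0.

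The 3 basal keratins did not differ from one another beyond the spread of the arrays in the loess and scanner ratios, except that Krt15 lay 0.08 ± 0.07 above Krt5 after loess (SD, n = 2 arrays). The loess ratio of Krt14 exceeded that of Krt5 by 0.23 ± 0.26 and that of Krt15 by 0.15 ± 0.19. In the scanner's ratios Krt14 lay 0.23 ± 0.49 above Krt5 and 0.08 ± 0.19 above Krt15, and Krt15 lay 0.15 ± 0.30 above Krt5. Krt15, known as a bulge marker, thus stood with Krt5 and Krt14. Of the 7 compared bulge markers other than Krt15, 5 were called higher in Lgr5-high cells (Cd34, Lgr5, Lhx2, Tbx1 and Tcf7l1). Itga6, which basal cells share, was called higher in Lgr6-high cells. The shares of all genes were 4.75% and 7.26% in these directions. Lgr5 is the gene whose reporter the cells were sorted on, so its direction was fixed by the sort.

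Other keratins went both ways. Of 43 on the array, 28 were too dim in both populations. Of the 15 compared, 5 were called higher in Lgr6-high cells and 3 in Lgr5-high cells, against 7.26% and 4.75% of all genes. The list median was -0.12, where all genes had -0.05. Called higher in Lgr6-high cells were the suprabasal keratins Krt10 (3.58 ± 0.43) and Krt1, which was not above background in Lgr5-high cells and was at least 4.68-fold higher in Lgr6-high cells. Krt16, which is induced in injured epidermis (2.97 ± 0.37), Krt79 of the upper follicle (1.85 ± 0.23) and the hair keratin Krt32 (1.12 ± 0.18) were called in the same direction. Called higher in Lgr5-high cells were the inner root sheath keratins Krt28, not above background in Lgr6-high cells and thus at least 5.73-fold lower there, and Krt71 (-1.76 ± 0.33), and the companion layer keratin Krt75 (-1.34 ± 0.24). The bounds for Krt1 and Krt28 hold for the values after loess only. Their mean log2 ratios were 1.45 and -1.78 without background subtraction, and 1.35 and -1.35 with normexp fitted on all spots. Of the arrays, only 1 had Krt71 and Krt75 above background for Lgr6-high RNA. Over all 15 compared, called or not, the SD ranged between 0.045 (Krt1) and 1.83 (Krt17), and the basal keratins had SDs of 1.39 to 1.65. By the scanner's ratios 6 other keratins were called in each direction, where 15.4% of all genes were called higher in Lgr6-high cells and 15.5% in Lgr5-high cells.

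**Figure D5:**
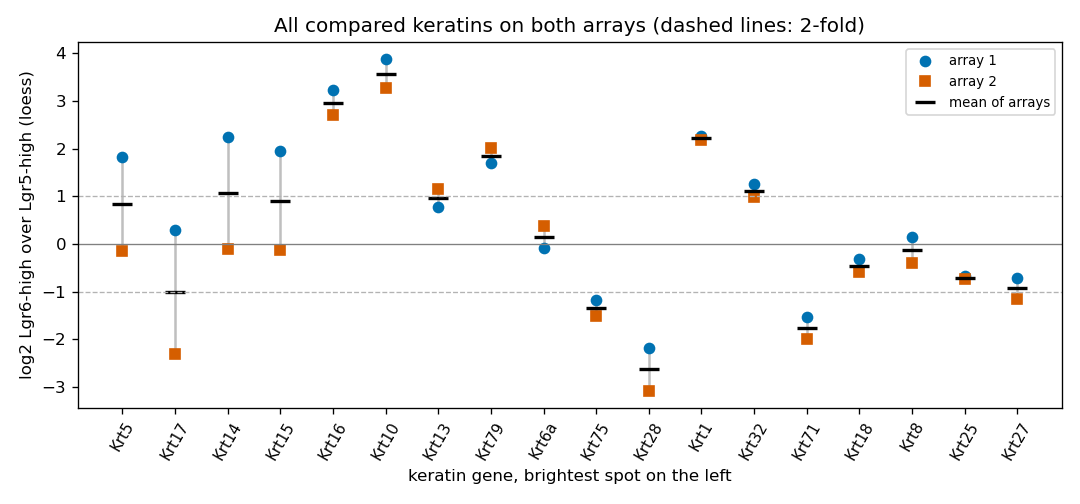
Log2 ratio of Lgr6-high over Lgr5-high after loess for the 18 compared keratins, brightest spot on the left, with array 1 as circles, array 2 as squares and their mean as a bar. The 4 brightest, Krt5, Krt17, Krt14 and Krt15, show the widest gaps between the arrays, and dashed lines mark a 2-fold difference.

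Krt14 and Krt15 lie in the type I keratin cluster on chromosome 11, and Krt5 in the type II cluster on chromosome 15. Of 10 compared keratins on chromosome 11, 3 were called higher in Lgr6-high cells and 1 in Lgr5-high cells. Of 8 on chromosome 15, which include the type I gene Krt18, 2 were called in each direction. These counts only divide the keratin calls given above, where 7.26% of all genes were called higher in Lgr6-high cells and 4.75% in Lgr5-high cells. In the RefSeq window from 250 bases before to 50 after the start of Krt5 (build GRCm38.p6), none of 4 motifs was found on either strand, which says only that these letters are not in this window. They were TATAAA of the TATA box, held by 13.6% of all 32851 windows, the AP-2 motif GCCNNNGGC (16.6%), the GC box GGGCGG (35.7%) and the AP-1 motif TGANTCA (7.81%).

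Of 16 compared genes for linkers and filament-associated proteins, 8 were called higher in Lgr6-high cells and 0 in Lgr5-high cells. Over all genes the shares were 7.26% and 4.75%. The list median was 1.02, where all genes had -0.05. The scanner's ratios called 10 and 0, where the shares of all genes were 15.4% and 15.5%. Among the hemidesmosome genes, the transmembrane collagen Col17a1 had a ratio of 1.67 ± 0.48, the integrin chain Itga6 1.58 ± 0.36 and its partner Itgb4 1.1 ± 0.13. Their cytoplasmic linkers were not called, with 0.95 ± 0.32 for Dst and 0.02 ± 0.92 for Plec. Cd151, also among the linkers, was not called and lay in the other direction at -0.25 ± 0.02. Among the desmosome and cornified envelope genes, plakophilin Pkp1 had 2.16 ± 0.49, periplakin Ppl 1.91 ± 0.27, desmoplakin Dsp 1.42 ± 0.52 and envoplakin Evpl 1.08 ± 0.46. The keratin-binding adaptor Sfn had 1.40 ± 0.33. Of the 25 compared linkers and regulators together, 12 were called from the scanner's signals, 1 after median centring and 0 from mean signals. Of all 6208 genes, 134 were called higher in Lgr6-high cells after median centring and 0.58% from mean signals.

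Of 9 compared genes for transcription factors described as regulators of Krt5 and Krt14, 0 were called from the loess ratios. Their median was 0.43, where all genes had -0.05. Trp63, which encodes the p63 factor that basal keratinocytes depend on, had a ratio of 0.43 ± 0.35. The AP-2 genes Tfap2a and Tfap2c had 0.24 ± 0.09 and 0.90 ± 0.55 after loess. The scanner's ratios called 2 of the 9, Tfap2c at 1.23 and Cebpa at 1.14, against 15.4% of all genes in that direction. The limma fit with the same 2-fold minimum called 8 of the 25 compared genes of both lists higher in Lgr6-high cells, against 7.38% of all genes.

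Among the genes whose 4 ratios (loess and scanner, each array) lay nearest to the mean of the 3 basal keratins were H3c14 (distance 0.143), Fth1 (0.610), a transcript listed as NAP103812-1 (0.638) and Apoe (0.647). Distances are Euclidean over the 4 log2 values. Their loess means were 0.96, 0.72, 0.88 and 1.17 in that order, and none of these 4 was called after loess.

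Markers of other cells also differed between the sorts, and their part in the keratin ratios was not tested. In bulk RNA, fewer cells of a type and less RNA per cell cannot be told apart. For the counts that follow, 7.26% of all genes were called higher in Lgr6-high cells and 4.75% in Lgr5-high cells. The summed level of the 5 basal markers other than the members (intensity after loess and scaling between arrays, on a linear scale) was 13162 and 12906 on arrays 1 and 2 in Lgr6-high cells, against 4561 and 5437 in Lgr5-high cells, with 3 of 5 called (Col17a1, Itga6 and Itgb4, which are also among the linkers). The 7 compared of 11 suprabasal markers summed to 24609 and 19290 in Lgr6-high cells, against 5358 and 5593 in Lgr5-high cells, with 4 called (Klf4, Krt1, Krt10 and Lor). The 7 compared of 10 fibroblast markers summed to 1106 and 677 in Lgr6-high cells, against 4036 and 2516 in Lgr5-high cells, with 5 called higher in Lgr5-high cells. The 3 compared of 10 endothelial and mural markers summed to 533 and 244 in Lgr6-high cells, against 2453 and 2044 in Lgr5-high cells, and all 3 were called higher in Lgr5-high cells. In Lgr6-high cells, 3 of the 7 fibroblast and 1 of the 3 endothelial and mural markers were not above background on either array. In Lgr5-high cells this held for 1 suprabasal marker, Krt1. These sums thus include values at background. Of 8 leukocyte markers, including Ptprc, 0 were bright enough to compare, and of 6 melanocyte markers 1 was (Dct, called higher in Lgr5-high cells). Both compared Schwann cell markers, Mbp and Pmp22, were called higher in Lgr6-high cells, and both compared red cell markers, Hba-a1 and Hbb-bt, higher in Lgr5-high cells. Basal and suprabasal levels were higher, and fibroblast, endothelial and mural levels lower, in Lgr6-high cells on both arrays.

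As a check on the labels, the best Lgr5 probe had a ratio of -1.74 on array 1 and -1.92 on array 2, lower in Lgr6-high cells. Both Lgr6 probes were too dim to compare. Spots above background made up 15.3% (Cy5, array 1) and 33.3% (Cy3, array 2) of probe spots for Lgr6-high RNA, against 31.6% (Cy3, array 1) and 16.2% (Cy5, array 2) for Lgr5-high RNA.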

How the data were processed

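Per the file headers, the authors' deposited scanner tables hold spot and local background intensity on a linear scale in both channels, extracted with Agilent Feature Extraction 10.5.1.1; the submitters' processing notes name 9.5.3. The deposited tables also hold the software's log10 ratio of Cy5 over Cy3 after its own background and dye corrections, together with a p-value per spot, which was not used. The authors' value table repeats that log10 ratio, with the sign turned on array 2 and a median of 0 in each column, so that its direction is Lgr6-high over Lgr5-high. Per the labels, 150 ng of RNA entered each labelling reaction.

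From these, background was corrected with normexp (offset 50, fitted without the 139 and 204 probe spots marked as outliers) and ratios were normalised by loess (span 0.3, control spots at weight 0) with limma 3.58.1 in R 4.3.3. Ratios were converted to log2 and turned by the dyes in the labels. The loess ratio is the main value, beside the mean-signal and scanner ratios. A probe entered if it was well above background in at least 1 population on both arrays, and a gene took its brightest passing probe. Probes were named by accession through RefSeq (25097), by symbol (6333) or by synonym (1640). Where 1 population was not above background on either array, only a bound from the levels after loess is given, as "at least". Summed levels were scaled between arrays with Aquantile. Scripts were tested on simulated data. Precision is limited by the number of arrays.

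Named were the 3 members, other keratins that were called or among the brightest 1%, called linkers and regulators (others of these 2 lists as context, chosen after their values were seen), the 5 genes nearest in ratio (1 of them is not reported here) and the 10 brightest. Mt2 was named after its values were seen. Members and lists were chosen with earlier results of these data known. Alternatives were the scanner's signals, the value table, mean signals, no background subtraction, median centring, normexp on all spots, a loess span of 0.7, median pixels, all probes, no filter, each array alone, limma (adjusted p under 0.05 and 2-fold) and, added after seeing the data, centring on the brightest 1%.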

Additional observations from a re-analysis of the deposited data

How the results depend on the processing

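Values are mean log2 ratios for Krt5, Krt14 and Krt15 in that order, 0.83, 1.07 and 0.91 in the loess ratios and not called. The scanner's signals and the authors' value table gave 1.12, 1.35 and 1.27, and centring on the brightest 1% gave 1.23, 1.46 and 1.31, all called. With normexp fitted on all spots they reversed, to -0.90, -0.49 and -0.62, not called. On single arrays they ranged between -0.15 and 1.82 for Krt5, -0.10 and 2.24 for Krt14, and -0.12 and 1.95 for Krt15, negative without array 1. Without background subtraction they were 0.34, 0.57 and 0.38. Of 42 alternative values, 24 kept direction and call, 12 gained the call and 6 reversed, and the cause was not tested. These counts include settings whose value could not differ, so they do not measure robustness. With a single probe per gene, averaging all probes or lifting the filter returns the loess value. The limma fit keeps the loess mean, and the value table repeats the scanner's ratio.

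Genes called higher in Lgr6-high and Lgr5-high cells numbered 451 and 295, against 959 and 960 by the scanner's signals or the value table, 36 and 15 by mean signals, 134 and 57 by median centring, and 124 and 151 with normexp on all spots. Without background subtraction 212 were called higher in Lgr6-high cells. Single arrays gave 434 to 611 and 315 to 471. For other keratins (5 and 3) the counts were 2 and 1 by mean signals, 3 and 1 with normexp on all spots, 3 in Lgr6-high cells by median centring, 6 in Lgr5-high cells by the scanner's signals or the value table, and 3 to 5 in Lgr5-high cells on single arrays. Linkers and regulators called higher in Lgr6-high cells (8) numbered 0 by mean signals, 4 without background subtraction, 1 by median centring and 2 with normexp on all spots.

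No paired analysis was possible because all arrays form 1 group of ratios with no other group to block against; the populations are paired only within each ratio. With the arrays counted as 1 replicate per population, no result can be read as carrying a spread between animals.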
